A study of Rattus norvegicus with 65 samples.

Results

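The hypothalamus of sham-operated rats was compared with that of saline-infused rats. These are the control groups of a study of Roux-en-Y gastric bypass (RYGB) and of the gut hormones peptide YY3-36 and liraglutide, a glucagon-like peptide 1 analogue. The members were chosen by their group label alone and were 11 sham-treated and 8 saline-treated animals, 19 of the 65 libraries of the series. All were adult male Wistar rats, with no age given in the labels, and each library came from 1 animal. All had become obese on a high-fat diet before the intervention and afterwards had free choice of a high-fat and a low-fat diet. Sham-treated animals underwent anaesthesia with isoflurane, butorphanol analgesia and an operation without the bypass, followed by some days of carprofen, a cyclooxygenase inhibitor. Saline-treated animals received isotonic saline from an osmotic minipump and by injection under the skin, and no sham operation is given for them. The groups therefore differed in the operation, the drugs given around it and the pump and injections at once, and these cannot be told apart. The study calls body weights at the start similar, but the mean was lower in the sham than in the saline group. It also states that treatment did not begin on the same day for all animals. Tissue was taken weeks later, after fasting. The animals belonged to 2 experimental periods, called batch A (5 sham and 3 saline) and batch B (6 sham and 5 saline).

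The hypothalamus controls food intake, body temperature, the daily rhythm and the pituitary. In its arcuate nucleus, neurons that make agouti-related peptide and neuropeptide Y drive feeding, and neurons that make proopiomelanocortin restrain it. Leptin and insulin act on both through their receptors, and the lateral hypothalamus adds orexin and melanin-concentrating hormone. The region borders on the thalamus with the habenula above it, on the striatum and basal forebrain in front and to the side, and on the pituitary below. A bulk library measures RNA over all cells of a piece, so fewer cells of a type and less RNA per cell cannot be told apart.

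Each library held from 20041000 to 34128600 counts in sham-treated and from 20622200 to 30401700 in saline-treated animals, with means of 25341400 and 25433700 (exact permutation test within batches, two-sided, adjusted p = 0.48). Sham libraries held a mean of 23491 ± 841 genes with a count (SD, n = 11) and saline libraries 23866 ± 921 (SD, n = 8; exact permutation test, p = 0.033, adjusted over 4 library measures p = 0.132). Hypothalamic content was described with 22 transcription factors of the region, scored as the mean log2 of CPM (counts scaled to library size) plus 1. No other tissue was compared, so the score does not test identity. All 22 passed the filter, which ran over all 65 libraries of the series. The score ran from 0.68 to 2.85 in sham and from 0.79 to 3.10 in saline libraries. It was lowest in sham replicates 2, 10 and 6 and in saline replicate 4. The list of 11 neuronal genes had scores of 7.58 to 8.36 and 7.47 to 8.46.

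Few genes separated the control groups. Of 21871 genes tested over all 65 libraries, with a term for the batch, 2 were regulated (0.00914%), which asks for an adjusted p below 0.05 together with a log2 fold change above 1 in either direction. Both were lower in sham-treated animals and are called Scube1 and Nwd2. The adjusted p alone added Pid1, also lower, so that 3 genes passed (0.0137%). At an unadjusted p under 0.05 there were 2812 genes (12.9%), of which 1370 were higher in sham-treated animals (6.26%) and 1442 lower (6.59%). The count of regulated genes depended on the tool and on single animals. DESeq2 without shrinkage gave 18 regulated genes, 16 of them lower in sham-treated animals, DESeq2 with its beta prior gave 3, of which 2 were lower, and limma voom with quality weights gave 334, of which 321 were lower. Without sham replicate 1, edgeR gave 105 regulated genes, 101 of them lower. It gave 1 gene without sham replicate 8, 9, 10 or 11 or saline replicate 5 or 7, and 4 or 5 genes without saline replicate 1, 2, 3, 4, 6 or 8. Within batch A 0 genes were regulated, with 2521 genes (11.5%) at an unadjusted p under 0.05, and within batch B 1 gene was regulated, with 2994 (13.7%).

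**Figure D1:**
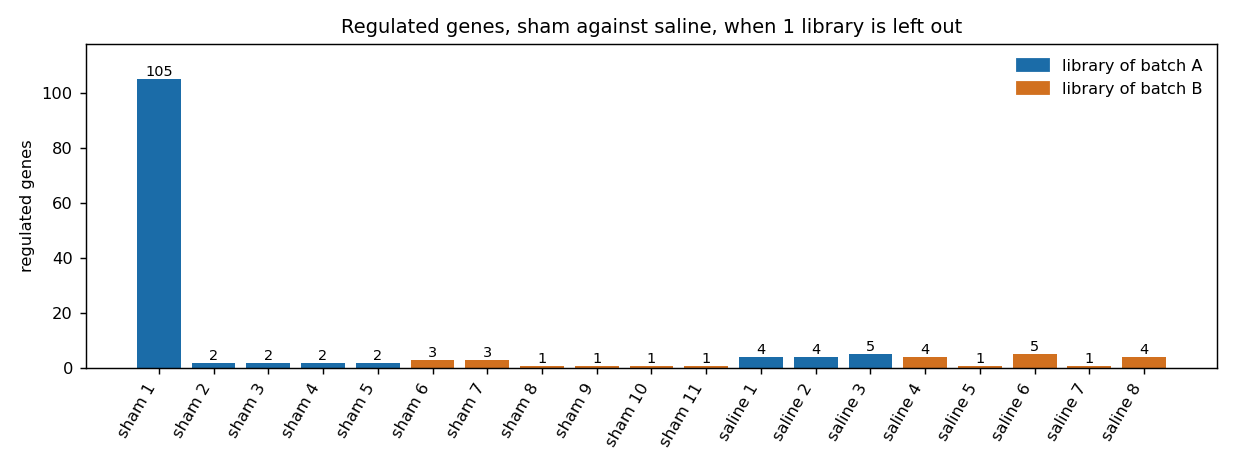
Number of regulated genes (bar height, from 0) between sham-treated and saline-treated animals in 19 fits that each left out 1 library, named below its bar and coloured by its batch. Without sham replicate 1 the count was 105, and in the other 18 fits it lay between 1 and 5.

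The count of regulated genes for a treated group differed with the control it was set against, and the values side by side share these control libraries. The controls also differ in size (11 sham and 8 saline libraries). These counts were not refitted with other tools or without single libraries, and the cause of the difference was not tested. From the same model, 518 genes were regulated in RYGB-treated animals vs. sham (2.37%) and 1 vs. saline (0.00457%). For peptide YY3-36 + liraglutide the counts were 496 vs. sham (2.27%) and 1 vs. saline (0.00457%). Food-restricted, body-weight-matched animals had 60 regulated genes vs. sham (0.274%) and 9 vs. saline (0.0412%). Lean animals had 0 vs. either control by edgeR, with 2674 genes at an unadjusted p under 0.05 vs. sham (12.2%) and 375 vs. saline (1.71%). The methods of the study do not describe the lean group. Libraries numbered 14 for RYGB, 10 for peptide YY3-36 + liraglutide, 7 for body-weight-matched and 6 for lean animals. The body-weight-matched and lean libraries were all of batch A, whereas both controls were in both batches.

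Scube1 encodes a secreted and cell-surface protein with EGF-like and CUB domains. It lies on chromosome 7, 124501988 to 124620755, minus strand, of the Rnor_6.0 genome build. Its normalized counts, which are counts divided by DESeq2 size factors, had a lowest value of 24.9, a median of 77.1 and a highest of 179 in sham-treated animals. In saline-treated animals the lowest was 36.99, the median 219 and the highest 765. All 11 sham values were below the saline median, and the groups overlapped because saline replicate 6 lay under 10 of the 11 sham values. In batch A the sham values were 64.3, 179, 77.4, 67.0 and 105 and the saline values 207, 231 and 174, so that 1 sham value, that of replicate 2, lay within the saline range. In batch B the sham values were 77.1, 82.7, 62.0, 53.9, 24.9 and 79.9 and the saline values 765, 259, 36.99, 406 and 118. Means were 79.4 ± 38.7 (SD, n = 11) and 275 ± 225 (SD, n = 8). Scube1 was lower by a log2 fold change of -1.88 (SE 0.31, adjusted p = 0.00167), at -1.04 within batch A and -2.34 within batch B. It passed in all 19 fits that left out 1 library, with adjusted p of at most 0.0391. With the ribosomal protein score as a covariate its log2 fold change was -1.52 (adjusted p = 0.0771), and in the fit of only the 19 control libraries its adjusted p was 0.155.

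Nwd2, which encodes a protein with NACHT and WD-repeat domains and is a marker of the habenula in the list used here, lies on chromosome 14, 46136780 to 46153320, minus strand. Its sham values ran from 174 over a median of 337 to 1362 normalized counts, and its saline values from 381 over 583 to 4237. The 3 highest saline values, 4237 in replicate 7, 2336 in replicate 5 and 1695 in replicate 4, were all of batch B, and the highest sham value was that of replicate 2 in batch A. Means were 422 ± 323 (SD, n = 11) and 1339 ± 1372 (SD, n = 8). The log2 fold change was -1.79 (SE 0.34, adjusted p = 0.0234), but it was 0.45 within batch A and -2.73 within batch B. It was the only gene for which the difference between the batches passed (3.18 on the log2 scale, batch A minus batch B, SE 0.55, adjusted p = 0.00809). Without saline replicates 5 and 7 the log2 fold change was -0.83 (adjusted p = 0.326).

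Pid1 encodes a phosphotyrosine interaction domain protein that dampens insulin signalling in fat cells. It lies on chromosome 9, 91667748 to 91683468, minus strand. Sham values ran from 167 over a median of 219 to 337 normalized counts and saline values from 294 over 375 to 726. All 11 sham values were below the saline median and 9 were below the lowest saline value. Means were 231 ± 54.6 (SD, n = 11) and 419 ± 141 (SD, n = 8). The log2 fold change was -0.86 (SE 0.17, adjusted p = 0.0468), at -0.95 within batch A and -0.81 within batch B, with a difference between them of -0.14 (SE 0.36). Pid1 passed in 9 of the 19 fits without 1 library. Its log2 fold change vs. sham was 0.83 in RYGB-treated animals and 0.75 in peptide YY3-36 + liraglutide-treated animals (adjusted p = 0.00131 and 0.0030), whereas vs. saline the same groups were at -0.03 and -0.11. These values reuse the sham libraries by which Pid1 was chosen and differ by its sham vs. saline value by construction. They are therefore not independent evidence.

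**Figure D2:**
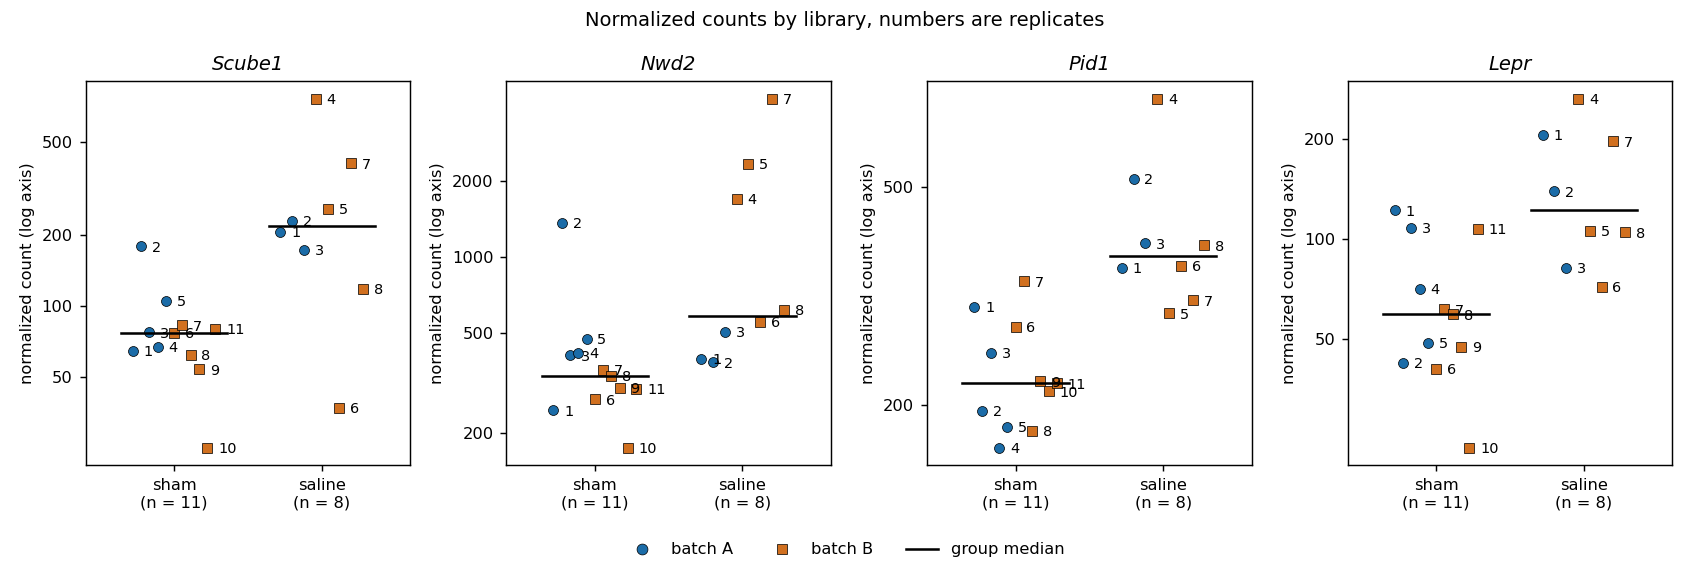
Normalized counts (log axes) of Scube1, Nwd2, Pid1 and the leptin receptor gene Lepr in 11 sham-treated and 8 saline-treated animals, each point 1 library with its replicate number, circles batch A, squares batch B, lines the group medians. All 11 sham values of Scube1, Pid1 and Lepr are below the saline median, and the highest Nwd2 values are saline replicates 7, 5 and 4.

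Several genes of the habenula were high in 2 saline libraries, and 1 of them was also high in sham replicate 1. Gpr151, a receptor gene of habenular neurons, had 2433 normalized counts in saline replicate 7 and 1193 in replicate 5, at most 8.97 in the other saline libraries and at most 27.9 in sham libraries. Pou4f1, a transcription factor of the same neurons, had 810 and 353 in these libraries and at most 3.35 in the other 6. Chrnb4, a nicotinic acetylcholine receptor subunit, had 241 and 186 there and at most 21.4 in the other 6. In sham libraries Pou4f1 had at most 11.01 and Chrnb4 at most 34.7, in replicate 1 for both. None passed over all libraries (log2 fold changes -6.15, -5.77 and -2.72, adjusted p = 0.0579, 0.0705 and 0.176), whereas all of them passed without sham replicate 1 and with DESeq2. Without saline replicates 5 and 7 the log2 fold changes of Gpr151, Pou4f1 and Chrnb4 were 0.26, 0.75 and -0.42. Chrna3, also on the thalamus and habenula list, had 1031 and 611 counts before scaling in saline replicates 7 and 5. It had 374 in sham replicate 1 and at most 37 in every other control library. Its log2 fold change was -2.41 over all libraries (adjusted p = 0.232), at 2.14 within batch A and -4.49 within batch B. Of the 14 thalamus and habenula genes, 1 passed the adjusted p (Nwd2), where 0.0137% of all genes did. At an unadjusted p under 0.05, 5 were lower, where 6.59% of all genes were. The median log2 fold change of the list was -0.23 against 0.013 over all genes. The median was -1.30 without sham replicate 1, which had the third highest score for this list, and its sign turned between batches, at 1.06 within batch A and -1.56 within batch B.

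Other genes with the smallest p in the lower direction did not pass over all libraries by edgeR. The 10 named here passed without sham replicate 1 (adjusted p of 0.0116 to 0.0259), with DESeq2 without shrinkage and with limma voom. Wasf3, a regulator of actin branching, had sham values of 1084 to 2051 (median 1357) and saline values of 1393 to 2550 (median 1922), with a log2 fold change of -0.52 (adjusted p = 0.0716). Maoa, monoamine oxidase A, which breaks down serotonin and noradrenaline, ran from 864 over 1305 to 1666 in sham and from 1468 over 1655 to 1910 in saline, and 10 of 11 sham values were below the lowest saline value (-0.38, adjusted p = 0.0879). The progesterone receptor gene Pgr ran from 14.5 over 40.8 to 111 in sham and from 45.4 over 115 to 182 in saline (-1.33, adjusted p = 0.106). The cell adhesion gene Negr1 was at -1.19, the axon guidance gene Ntn4 at -0.81 and the adaptor gene Crkl at -0.74, with adjusted p of 0.106 to 0.131. The lipid enzymes Cers4, a ceramide synthase, and Scd4, a stearoyl-CoA desaturase, were at -0.87 and -0.90, and Lrrc58, whose protein has leucine-rich repeats, was at -1.28. For Pgr, Ntn4 and Negr1 all 11 sham values were below the saline median, and for Maoa, Wasf3, Crkl, Cers4, Scd4 and Lrrc58 this held for 10. The log2 fold changes of these 9 genes were negative in both batches. Sla, an adaptor of immune receptor signalling, was at -1.37 over all libraries and at -0.78 without saline replicate 4, which held its highest value, 338, against 36.99 to 64.0 for the lowest and the median saline value. Vs. sham, RYGB-treated animals were at 1.53 for Pgr, 1.20 for Negr1, 1.09 for Cers4, 1.22 for Scd4 and 1.79 for Lrrc58, and vs. saline at 0.20, 0.01, 0.21, 0.32 and 0.51. In the shared model these values differ by the sham vs. saline log2 fold change by construction. As the genes were chosen for that difference, the values are not independent evidence.

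No gene was higher in sham-treated animals at an adjusted p under 0.05 by edgeR, while DESeq2 called 3 and limma voom 762 in this direction. The smallest p belonged to Syce1l, named after a protein of paired meiotic chromosomes. It ran from 64.3 over 90.4 to 145 normalized counts in sham and from 36.8 over 61.8 to 86.7 in saline, and all 11 sham values were above the saline median (log2 fold change 0.57, SE 0.14, adjusted p = 0.131). Without sham replicate 1, edgeR called 16 in this direction, among them Syce1l, Olr1462, Pnmt, Cyp4a2, Dad1 and Cwc22. Utp14a, which acts in the making of the small ribosomal subunit, was at 0.28, with 10 of 11 sham values above the highest saline value and the other one, of 347, below the lowest, 383. Dad1, a subunit of the enzyme that attaches sugars to proteins, was at 0.31, the splicing factor gene Cwc22 at 0.30, Snupn, which carries splicing particles into the nucleus, at 0.31, Ruvbl1, a helper of chromatin remodelling, at 0.28 and Mdm2, which marks p53 for breakdown, at 0.30. Adjusted p ran from 0.179 to 0.225 for these 6 genes. The hormone gene Fgf21 had a median of 25.8 in sham and 10.3 in saline (1.22, adjusted p = 0.215), the exchanger gene Slc9b2 was at 0.47, and the cardiac troponin gene Tnni3 was at 1.72, with values up to 596 in sham and 124 in saline.

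Some genes of this direction had few counts. Pnmt, the enzyme that makes adrenaline from noradrenaline, had 38 counts over 7 sham libraries and 0 in the 8 saline libraries, so that its level was at least 9.54-fold higher in sham against a floor of 3 counts over the saline group. On the same floor Il17c, a cytokine gene, was at least 6.28-fold higher, with 25 counts in 7 sham libraries. Cyp4a2, a fatty acid hydroxylase, was at least 41.4-fold higher, but 161 of its 165 counts came from sham replicates 6, 8 and 9, and the other 8 sham libraries held 4. The amino acid transporter gene Slc7a13 was at least 14.1-fold higher, with 55 of 56 counts in the same 3 libraries. Whether the counts of both genes came from the dissected tissue or were carried over from other libraries was not tested, and the bounds hold for these counts alone. Batch is not a term in these bounds. They allow for counting error in the saline group alone, since the sham level was taken as measured, and not for the spread between animals. The adjusted p of these 4 genes in edgeR were 0.176 to 0.225. The olfactory receptor gene Olr1462 had 204 normalized counts in sham replicate 2, a median of 5.16 in sham and at most 4.48 in saline, and its log2 fold change was 3.76 with and 2.24 without that library.

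Ribosomal protein genes lay on 1 side of 0. All 80 genes tested from the list of 79 symbols had a log2 fold change above 0, where 52.4% of all genes did, and 34 were higher at an unadjusted p under 0.05 (6.26% of all genes), with none past the adjusted p. The median was 0.27, at 0.25 within batch A and 0.28 within batch B. Rpl13, of the large subunit, ran from 5573 over 7975 to 10795 in sham and from 5352 over 6183 to 8214 in saline (0.34, SE 0.11, adjusted p = 0.232), and Rps15, of the small subunit, was at 0.39 (SE 0.15). Genes of oxidative phosphorylation, whose products form the respiratory chain and ATP synthase of mitochondria, lay mostly on the same side. Of 62 tested, 59 had a log2 fold change above 0 and 29 were higher and 1 lower at an unadjusted p under 0.05, with a median of 0.25. This median was 0.41 within batch A, 0.12 within batch B and 0.077 with the ribosomal protein score as a covariate. The complex I genes Ndufs5 and Ndufv3 were at 0.40 and 0.25. The succinate dehydrogenase genes Sdhb, Sdhc and Sdhd, of complex II, were at 0.14, 0.12 and 0.21 (adjusted p of 0.405 to 0.565).

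These genes are short, and the difference between the groups moved with transcript length over all genes. Of 4 equal classes, that with the shortest exonic length (60 to 1511 bases) had a median log2 fold change of 0.13, and 66.9% of its genes were above 0. In the following classes the median was 0.03 and -0.01, and in the longest (4474 to 103958 bases) it was -0.05, with 38.7% above 0. In the shortest class 805 genes were higher and 302 lower at an unadjusted p under 0.05, and in the longest 75 and 393. Within batches the shortest class was at 0.16 (A) and 0.10 (B) and the longest at -0.08 and -0.04. The ribosomal protein score was 7.31 to 8.46 in sham (median 8.002) and 7.39 to 8.15 in saline (median 7.75), and it was lowest in sham replicate 1. With this score as a covariate, 1205 genes had an unadjusted p under 0.05 (5.51%) and 0 passed the adjusted p by edgeR. The part of RNA quality or library preparation in these values was not tested.

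No receptor gene of feeding signals passed the adjusted p over all libraries by edgeR, and Insr and Glra3 passed without sham replicate 1. Of 34 tested, 8 were lower and 1 higher at an unadjusted p under 0.05, where 6.59% and 6.26% of all genes were, and the median log2 fold change was -0.17. The median turned between batches, at -0.49 within batch A and 0.049 within batch B. The leptin receptor gene Lepr (chromosome 5, 120503475 to 120682281, plus strand) ran from 23.5 over 59.4 to 122 normalized counts in sham and from 71.7 over 122 to 264 in saline. All 11 sham values were below the saline median and 8 were below the lowest saline value. Its log2 fold change was -1.28 (SE 0.40, adjusted p = 0.232), at -0.86 within batch A and -1.41 within batch B. Vs. sham, Lepr was at 1.39 in RYGB-treated and 1.57 in body-weight-matched animals, and vs. saline at 0.11 and 0.28. In the shared model these values differ by the sham vs. saline value of Lepr by construction, so they add no independent evidence. Insr, the insulin receptor, was at -0.72 (adjusted p = 0.247) with a sham median of 188 and a saline median of 325. The serotonin receptor genes Htr2a and Htr5a were at -1.30 and -0.67. Htr2a had a highest saline value of 182 in replicate 4, without which it was at -0.86. The glycine receptor gene Glra3 was at -1.77 (adjusted p = 0.215) with values of 0 to 20.3 in sham and 7.14 to 82.8 in saline. The prolactin receptor Prlr was at -1.09, with -2.58 within batch A and 0.24 within batch B. The pancreatic polypeptide receptor Npy4r was at -1.25 on few counts, with normalized values of 0 to 10.6 in sham and 1.38 to 17.1 in saline. With the ribosomal protein score as a covariate the list median was -0.02.

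**Figure D3:**
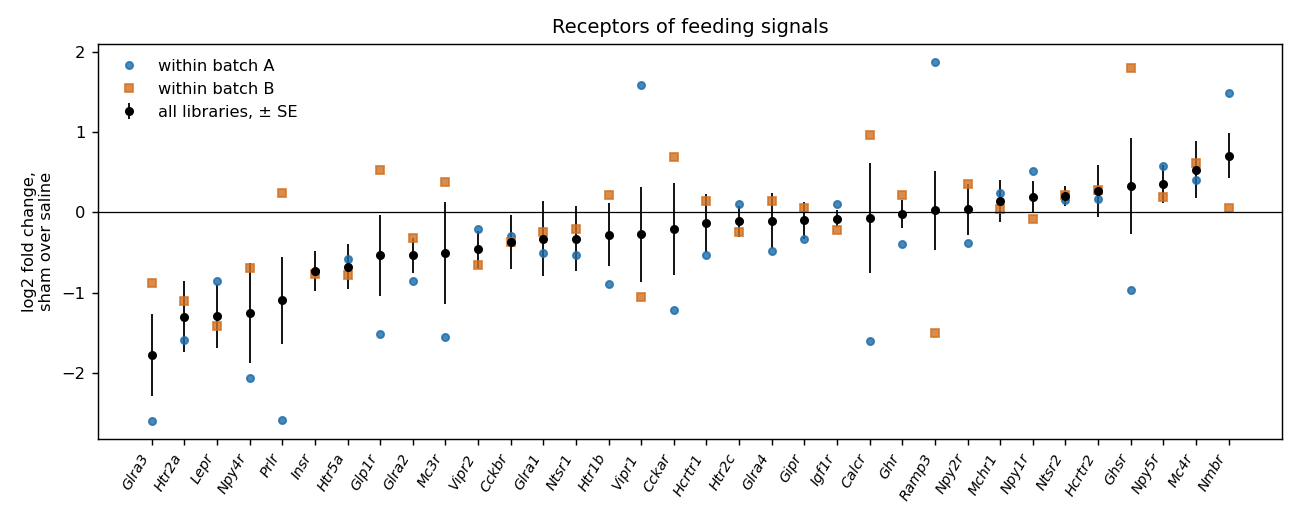
Log2 fold change, sham over saline, of 34 receptor genes of feeding signals, black points with SE from the fit of all libraries, blue circles from the fit of batch A and orange squares from that of batch B. Lepr, Htr2a, Insr, Htr5a and Glra3 are below 0 in all 3 fits, and Prlr is at -2.58 in batch A and 0.24 in batch B.

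Of 19 genes that the study named in its results, 7 were lower and 0 higher at an unadjusted p under 0.05 by edgeR, where 6.59% and 6.26% of all genes were. The 7 were the receptor genes Lepr, Insr, Htr2a, Htr5a, Glra3, Prlr and Npy4r given above. The median of the 19 was -0.27, at -0.50 within batch A and 0.062 within batch B. The study named 15 of them from comparisons with the same sham animals, so that their direction here is not independent evidence, and Ffar4, Ucn, Tph2 and Mrap from RYGB-treated vs. body-weight-matched animals. The melanocortin receptors Mc3r and Mc4r, which carry the signal of proopiomelanocortin peptides, were at -0.50 and 0.53. Htr1b was at -0.27, Glra1 at -0.32 and Glra4 at -0.10. The fatty acid receptor Ffar4, the peptide urocortin (Ucn), the serotonin-making enzyme Tph2 and the melanocortin receptor accessory protein Mrap were at 0.92, 0.22, 0.13 and -0.05, with adjusted p of 0.719 to 0.989, and Ffar4, Ucn and Mrap had at most 19.3 normalized counts in any of these libraries.

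Feeding peptides varied widely between animals of the same group. None of the 11 arcuate peptide genes had an unadjusted p under 0.05 (median log2 fold change 0.27, at -0.43 within batch A and 1.36 within batch B). Pomc, the proopiomelanocortin gene, ran from 70.2 over 1339 to 29071 normalized counts in sham and from 57.1 over 114 to 6923 in saline (1.63, SE 1.14, adjusted p = 0.555). The 25 genes tested of the other neuropeptides came from 24 symbols, because Qrfp has an extra entry with the same values. Of these 25, 1 was higher at an unadjusted p under 0.05 (6.26% of all genes), with a median of 0.24. This was the orexin gene Hcrt, a peptide of wakefulness and feeding, which ran from 0 over 289 to 14652 in sham and from 0.975 over 57.9 to 2348 in saline (2.998, SE 1.25, adjusted p = 0.322). Pmch, which encodes melanin-concentrating hormone, ran from 93.1 over 4814 to 64780 and from 48.8 over 2310 to 16927 (2.12, SE 1.19). Vip, the peptide of the suprachiasmatic clock, was at -1.08 (SE 0.57). In each of these 4 genes the highest library of a group was over 10 times the lowest, and the groups overlapped.

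Lists that bear on surgery, pain relief and stress held few genes with a small p. Of 20 glucocorticoid response genes, 1 was higher and 1 lower at an unadjusted p under 0.05 (median 0.06), where 6.26% and 6.59% of all genes were. These were the mineralocorticoid receptor Nr3c2 at 0.56, and at 0.21 without sham replicate 2, which had 3069 normalized counts, and Pdk4, a regulator of glucose oxidation, at -0.58. Fkbp5, a target of the glucocorticoid receptor, was at 0.43 and likewise at 0.24 without sham replicate 2. Of 8 opioid genes, the delta receptor Oprd1 was at -1.09 (adjusted p = 0.386) and the peptide gene Penk at 0.70, and the median was 0.05. None of 13 prostaglandin genes had an unadjusted p under 0.05 (median -0.07), and the smallest p was that of Hpgds, a prostaglandin D synthase, at -0.64. Of 17 inflammation genes, 2 were lower (median -0.11), the endotoxin receptor Tlr4 at -0.59 and the interleukin-1 receptor Il1r1 at -0.74. Il1r1 was at -0.22 without saline replicates 5 and 7. Of 13 interferon genes, 1 was lower, and the median was -0.02. Of 18 immediate early genes, which mark recent neuronal activity, 1 was lower, Nr4a2 at -0.91 (median -0.06). Medians turned between batches for the glucocorticoid list (0.32 within batch A and -0.21 within batch B), the opioid list (-0.35 and 0.24), the interferon list (-0.21 and 0.098) and the immediate early genes (0.88 and -0.60).

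Of the signalling lists, JAK-STAT had 5 of 21 genes lower and 0 higher at an unadjusted p under 0.05 by edgeR, where 6.59% and 6.26% of all genes were, with a median of -0.14. Pias1, an inhibitor of activated STAT proteins, was at -0.72 (adjusted p = 0.185), the transcription factor Stat5b at -0.60, and Lepr is also on this list. PI3K-Akt had 4 of 20 lower (median -0.08). Among them were the insulin receptor substrate Irs1 at -0.69 and the transcription factors Foxo1 and Foxo3 at -0.68 each. Of 11 genes of AMP-activated protein kinase, Prkag1 was higher at 0.12 (median 0.07). Of 21 genes of cholesterol and fatty acid synthesis, 7 were lower (median -0.09). Among them were acetyl-CoA carboxylase Acaca at -0.56 and the desaturase Scd at -0.43. With the ribosomal protein score as a covariate Pias1 was at -0.38. Pias1 and Acaca passed the adjusted p without sham replicate 1. Of 19 clock genes, 3 were higher (median 0.10), namely Dbp at 0.40 (adjusted p = 0.240), Ciart at 0.39 and Cry1 at 0.22. Of 15 genes of endoplasmic reticulum stress, 1 was higher, the chaperone Calr at 0.19 (median 0.10). Of 4 nuclear long noncoding RNAs tested, 1 was higher, Gas5 at 0.31 (median -0.14). Medians turned between batches for JAK-STAT (-0.31 within batch A and 0.012 within batch B), AMP-activated protein kinase (0.14 and -0.040) and cholesterol and fatty acid synthesis (0.045 and -0.25).

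**Figure D4:**
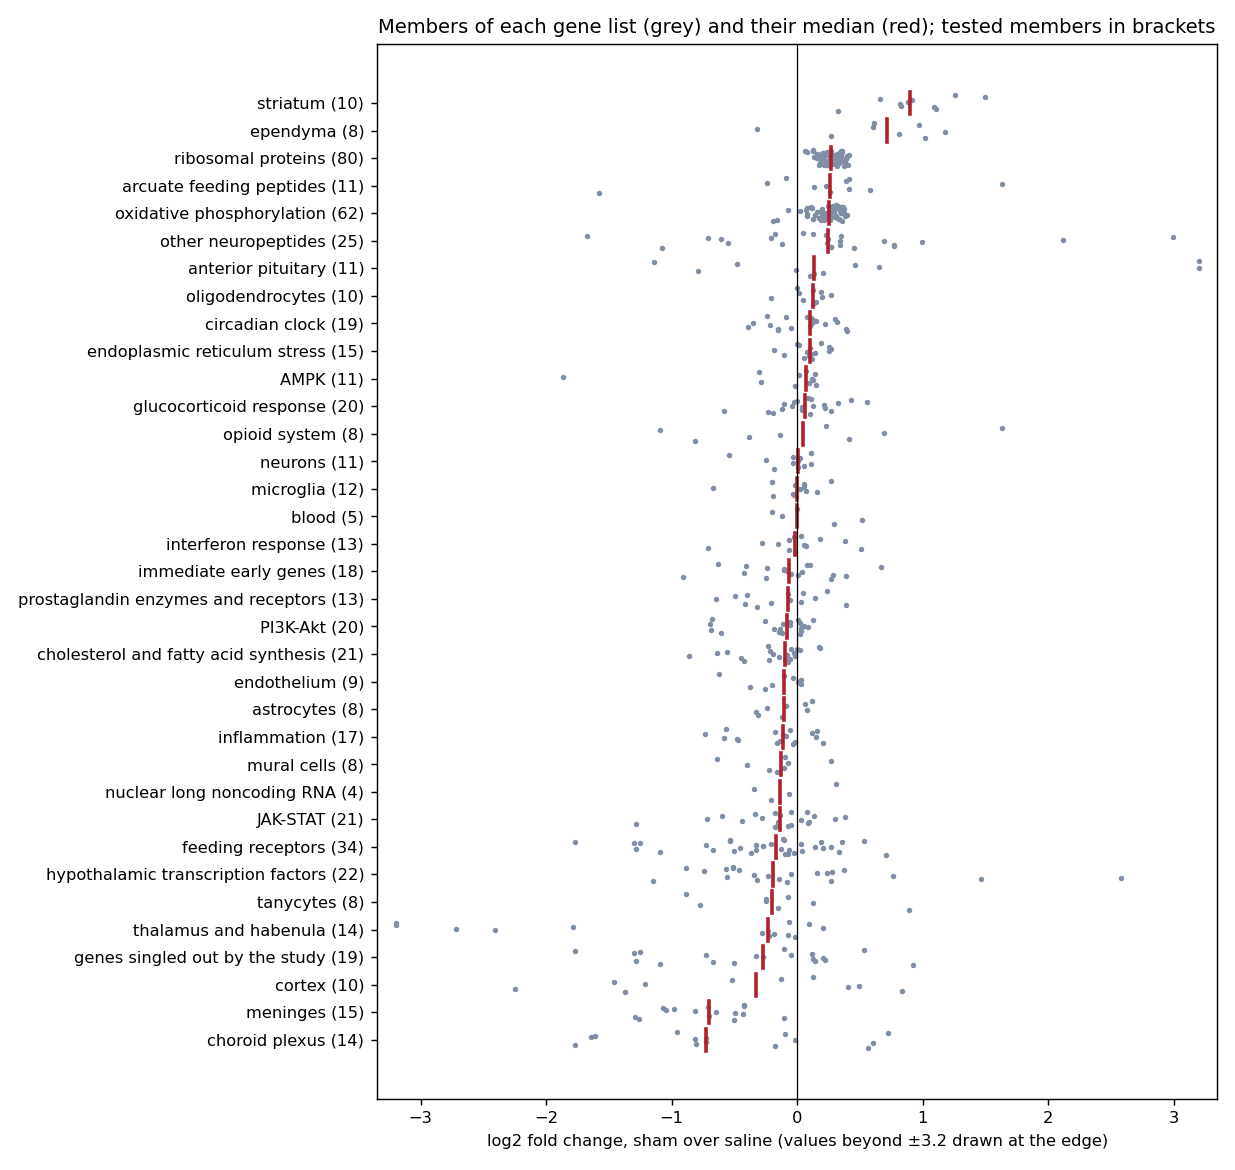
Log2 fold change, sham over saline, of every tested member of 35 gene lists (grey points) with the list median (red line) and the number of members tested in brackets. The 80 ribosomal protein genes are all above 0, and list medians run from -0.73 for choroid plexus to 0.90 for striatum.

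Markers of neighbouring tissues differed between libraries, in both groups. The thalamus and habenula score was 2.63 to 5.03 in sham and 2.84 to 5.99 in saline, and it was over 5 in sham replicate 1 and saline replicates 5 and 7. The striatum score was 3.73 to 8.19 and 4.07 to 7.24, highest in sham replicates 10 and 6 and in saline replicate 8. All 10 striatum genes had a log2 fold change above 0 (median 0.90), where 52.4% of all genes did, and none had an unadjusted p under 0.05. Adora2a, an adenosine receptor of striatal neurons, had 8087 and 7560 normalized counts in sham replicates 10 and 6 and 3575 in saline replicate 8, against medians of 889 and 275. The cortex score was 6.03 in sham replicate 2 and 5.39 in saline replicate 4 and at most 3.92 in all others. Tbr1, a transcription factor of cortical neurons, had 306 and 1092 normalized counts there. Its log2 fold change was -2.25 (adjusted p = 0.250), and -0.90 without saline replicate 4. The same pair of libraries had the highest immediate early gene scores, 5.24 and 5.78, and the lowest scores for hypothalamic transcription factors, 0.68 and 0.79. Of those 22 factors, Barhl1 of the mammillary region was higher at an unadjusted p under 0.05 (2.58, adjusted p = 0.295), with 662 normalized counts in sham replicate 3, at most 30.1 in saline and a log2 fold change of 0.29 without that library.

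Markers of the coverings and vessels lay mostly on the lower side. The 15 meninges genes tested came from 14 symbols, because Ogn has an extra entry with near-identical values. All 15 were below 0 (median -0.70), where 52.4% of all genes were above 0. None had an unadjusted p under 0.05, and the median was 0.05 without saline replicates 5 and 7. Of 14 choroid plexus genes, 3 were lower at an unadjusted p under 0.05 (6.59% of all genes; median -0.73, at 0.19 within batch A and -0.92 within batch B), among them Kl, the klotho gene, at -1.64 (adjusted p = 0.229) and the water channel Aqp1 at -1.77, and the median was 0.64 without those 2 libraries. Of 8 mural cell genes, Rgs5 was lower at -0.64 (median -0.13), and of 9 endothelial genes Tek was lower at -0.38 (median -0.10). Of 12 microglial genes, the fractalkine receptor Cx3cr1 was lower at -0.67 (adjusted p = 0.229), with all 11 sham values below the saline median, and the list median was 0.0013. List medians were 0.13 for 11 anterior pituitary and for 10 oligodendrocyte genes, -0.10 for 8 astrocyte genes, -0.20 for 8 tanycyte genes, 0.71 for 8 ependymal genes, 0.0040 for 11 neuronal genes and -0.0029 for 5 blood genes. Their part in the results above was not tested beyond the fits that had list scores as covariates. With the thalamus and habenula, striatum and cortex scores as covariates, Scube1 and Pid1 had adjusted p of 0.0340 each and Nwd2 0.201. Nwd2 is itself on the thalamus and habenula list, so this fit adjusts it in part for itself and its value there decides nothing. With the pituitary, choroid plexus and meninges scores Scube1, Pid1 and Nwd2 had 0.00533, 0.00730 and 0.0774.

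**Figure D5:**
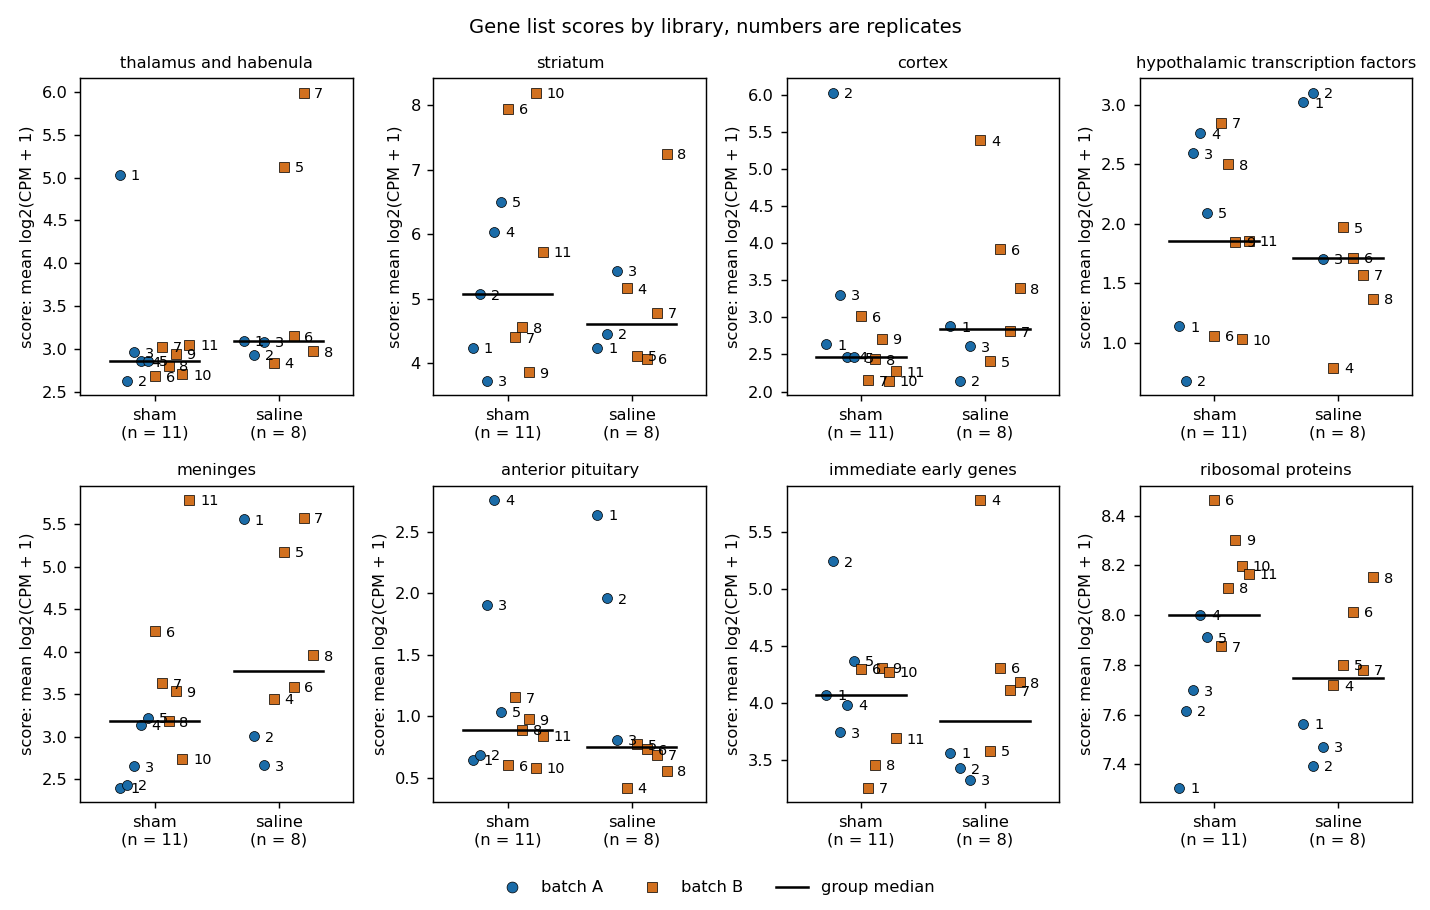
Score (mean log2 of CPM plus 1 over the tested genes of a list) of 8 lists in each library, with its replicate number, circles batch A, squares batch B, lines the group medians. Sham replicate 1 and saline replicates 5 and 7 are over 5 for thalamus and habenula, sham replicate 2 and saline replicate 4 are over 5 for cortex, and sham replicates 6 and 10 are the highest for striatum.

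Some genes showed no overlap of the groups inside either batch. In 7 genes every sham value was above every saline value of the same batch (0.0320% of genes tested), and in 2 every sham value was below (0.00914%). The mitochondrial ribosome gene Mrpl30 ran from 416 over 582 to 659 normalized counts in sham and from 337 over 465 to 494 in saline (0.41, adjusted p = 0.232). Another of the 7 entries, without a standard symbol, had values slightly below those of Mrpl30 in every library. Whether these entries share reads was not tested. Hspb11, of the transport machinery of cilia, was at 0.37, the DNA repair gene Swi5 at 0.26 and Hsbp1, which binds heat shock factor, at 0.21. In the other direction, Cdc73, a subunit of the PAF1 complex of transcription, ran from 99.0 over 156 to 178 in sham and from 158 over 200 to 246 in saline (-0.45, adjusted p = 0.242). Between the batches, 1 gene (0.00457%) had a sham effect that differed at an adjusted p under 0.05, Nwd2, and 2411 (11%) had an unadjusted p under 0.05. None was called without saline replicate 1, 2, 3 or 7, and 15 were called without sham replicate 4.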

How the data were processed

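Stranded poly-A libraries of rat hypothalamus were sequenced by the authors from 1 end, trimmed with cutadapt, mapped with STAR 2.7.2b to Rnor_6.0 and counted on RefSeq exons with featureCounts 1.6.4, with versions from the submitters' processing notes and the methods. Reads with several places or genes were shared in fractions, so the deposited values are estimated counts, not normalized, of which 30.3% of the nonzero ones were not whole at a tolerance of 1e-06. Genes with near-identical copies share reads. For tests the counts were rounded. Groups and batches came from the labels of all 65 libraries, the 19 sham and saline libraries were compared, and other groups were set against these 2 controls in the same model where stated.

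Genes with low counts were removed with filterByExpr (minimum count 10, minimum total 15), leaving 21871 of 38513. edgeR 4.0.16 (R 4.3.3) fitted TMM-scaled counts with its robust quasi-likelihood test, terms for group and batch and Benjamini-Hochberg adjustment over all genes. Adjusted p are from edgeR unless another tool is named, and values given within a batch come from fits of that batch alone. A difference between batches was tested in a model of group by batch. The SE is the absolute log2 fold change over the root of F. DESeq2 1.42.0 and limma 3.58.1 served as alternatives. Library measures were compared by exact permutation within batches (25872 arrangements, scipy 1.17.1). The code was tested on simulated data. No pair of libraries agreed within sampling noise. Total counts set the precision. The edgeR p-values rest on counting error and on the spread between libraries, estimated over all 65 libraries in the main fit. With a single library per animal, the spread between animals cannot be told apart from that of dissection and library preparation.

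The members and the 35 gene lists were chosen with earlier results of these data known, and lists were described without a test. Named were the 15 genes with the smallest p in each direction (no LOC, RGD or MGC symbols), up to 4 genes of each list, the genes named in the study's results, and genes without overlap in either batch or called for the difference between batches. Alternatives were other tools, scalings, filters, covariates and subsets of libraries, with sensitivity given at the end. Some members of the lists are not reported here.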

Additional observations from a re-analysis of the deposited data

Results flagged for a closer look

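In 128 groups of 8 saline values (93 genes and 35 list scores), a single value stood far from the others in 9, by Dixon's criterion at the 95% level, which chance alone reaches in about 1 of 20 groups. Saline replicate 4 stood apart for Sla (338 normalized counts), Htr2a (182) and Tbr1 (1092) and for the immediate early gene score (5.78). Saline replicate 8 stood apart for Penk (26278 normalized counts), Adora2a (3575) and the striatum score (7.24). Saline replicate 7 stood apart for Pou4f1 (810 normalized counts) and saline replicate 2 for Glra3 (82.8). The 11 sham values were too many for this criterion.

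The sham effect on Nwd2 differed between the batches by 3.18 on the log2 scale (batch A minus batch B, edgeR adjusted p = 0.00809), with a log2 fold change of 0.45 in batch A and -2.73 in batch B. Without saline replicates 5 and 7, both of batch B, no gene passed for this difference by edgeR, and 2662 had an unadjusted p under 0.05.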

How the results depend on the processing

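Of 93 named genes, 78 kept their sign in every alternative tried, and the direction of Scube1 and Pid1 was among these. Chrna3, added outside the naming rule and above 0 within batch A, was not among the 93. Without sham replicate 1, 23 of the named genes newly passed the adjusted p, and 45 did with limma voom. The 2 regulated genes became 18 with DESeq2 without shrinkage, 334 with limma voom and 4 without the batch term. They became 1 within batch B, with either set of tissue scores as covariates (pituitary, choroid plexus and meninges, or thalamus and habenula, striatum and cortex) and without saline replicates 5 and 7, an alternative chosen after seeing the data. They became 0 within batch A, in the fit of only the 19 libraries and with the ribosomal protein score. The 3 genes at an adjusted p became 28 with DESeq2, 32 with DESeq2 and its beta prior, 1790 with limma voom, 5 without the batch term, and 0 within batch A, in the 19 libraries alone and with the ribosomal protein score. Leaving out 1 library gave 1 to 105 regulated genes, 1 to 191 at an adjusted p and 0 to 15 for the difference between batches. That difference gave 90 genes with DESeq2, and 0 in the 19 libraries alone and without saline replicates 5 and 7. The cause was not tested. Limits are the small groups within batches (3 saline animals in batch A), overlap of the groups for every named gene, and few counts for Pnmt, Il17c, Npy4r, Ffar4, Ucn and Mrap.

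With the replicate number as a block, 0 genes were regulated and 0 passed the adjusted p by edgeR, with 1639 at an unadjusted p under 0.05. The numbers did not pair the animals, since deviations of same-numbered sham and saline libraries correlated at -0.36 to 0.12 over 8 pairs, 1 of them over 0.1, and no library correlated best with its own number. Ucn was at -0.24 with the block.

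Signs turned as follows. Within batch A the log2 fold changes were 0.45 for Nwd2, 1.401 for Gpr151, 1.13 for Pou4f1, 0.36 for Tbr1, 0.75 for Nr4a2, 1.15 for Mrap and -0.21 for Ucn. Within batch B they were 0.24 for Prlr, 0.38 for Mc3r, 0.22 for Htr1b, 0.15 for Glra4 and -0.28 for Tph2. Without saline replicates 5 and 7 they were 0.26 for Gpr151, 0.75 for Pou4f1 and 0.35 for Mrap. With the ribosomal protein score they were 0.34 for Htr1b and 0.026 for Glra1. With the thalamus and habenula, striatum and cortex scores they were 0.33 for Mrap and -0.027 for Penk, and with the pituitary, choroid plexus and meninges scores 0.35 for Mrap and 0.020 for Aqp1. Aqp1 is itself on the choroid plexus list, so the latter fit adjusts it in part for itself. Mrap was at 0.14 in the 19 libraries alone and 0.18 with limma voom, and Tph2 at -0.086 without the batch term and -0.062 with limma voom. Leaving out 1 library gave -0.24 to 0.0044 for Glra4, -0.091 to 0.44 for Ucn, -0.050 to 0.33 for Tph2 and -0.24 to 0.38 for Mrap.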

Other observations

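Traces of kidney transcripts were found in 3 sham libraries of batch B, for genes chosen after their values were seen. Kap, an androgen-regulated protein of the kidney tubule, had 8, 27 and 108 counts in sham replicates 6, 8 and 9, 0 in the other 8 sham libraries, and 3 in saline replicate 1 as its sole counts among saline libraries. Cyp4a2 had 28, 24 and 109 counts and Slc7a13 had 12, 10 and 33 in the same 3 sham libraries, and both had 0 counts in saline. The phosphate transporter gene Slc34a1 had 19, 12 and 45 there, at most 14 in the other sham libraries and at most 5 in saline. Cyp4a2 and Slc7a13 were among the 15 genes with the smallest p on the side higher in sham-treated animals. Whether these counts came from the dissected tissue or were carried over from other libraries was not tested.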
